A study of Mus musculus with 4 samples.

Results

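The lung epithelial marker genes are 10 genes that define cell types of the lung lining: Sftpa1, Sftpb, Sftpc, Sftpd, Abca3, Nkx2-1, Scgb1a1, Foxj1, Aqp5 and Cftr. They were read in mouse embryonic stem cells (ESCs), and their members were chosen by symbol, through the transcript accession of each array probe. All 10 had a probe, 14 probes in all out of 41174 gene probes on the array. Of 21639 genes and transcripts that were bright enough to be tested, 6 were members.

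The study profiled 4 ESC lines on Agilent whole mouse genome 4 x 44K arrays, with 1 array per line and Cy3 as the only dye. The 2 KO lines (KO 1 and KO 2) were homozygous for the ECAT15-2 null allele (15-2-/-) and for a conditional targeted ECAT15-1 allele (15-1CT/CT). The 2 WT lines (WT 1 and WT 2) were wild type at both genes (15-2+/+, 15-1+/+). ECAT15-2 is Dppa2 and ECAT15-1 is Dppa4, neighbouring genes for paired nuclear proteins of pluripotent cells. Because both KO lines also carried the targeted Dppa4 allele, the comparison is between compound genotypes. All 4 lines were derived from blastocysts of crosses between double heterozygotes, on a mixed background of 129Sv and C57/BL6 with a Cre or FLPe transgenic strain, and grew on gelatin with LIF and 15% serum, with harvest after 3 days. KO 1 and WT 1 came from mother 1046, and KO 2 and WT 2 from mother 875. Each line was a single derivation, so p-values rest on the spread between 2 lines per genotype. For each gene, limma moderated this spread with that of all genes tested.

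In the lung, Nkx2-1 is the homeobox factor that marks the respiratory part of the foregut and is needed for surfactant gene expression. Alveolar type 2 cells make surfactant, a film of lipid and protein. Sftpb and Sftpc encode its hydrophobic proteins, Sftpa1 and Sftpd its lectins of innate defence, and Abca3 the transporter that loads lipid into lamellar bodies. Aqp5 is a water channel of alveolar type 1 and gland cells, Scgb1a1 the main secretory protein of club cells, Foxj1 the regulator that starts the motile cilium program, and Cftr the chloride channel that is mutated in cystic fibrosis. Mice without Dppa2 or Dppa4 are known to die around birth with lung defects, although both genes are silent in the lung by then. The question here is what these lung genes do in ESCs of the mutant genotype.

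The promoters of 6 members were in the RefSeq table used here, each 250 bases before to 50 bases after the start of the gene. Those of Cftr, Aqp5 and Sftpa1 are shown, because Cftr passed the test, Aqp5 had the next smallest unadjusted p, and Sftpa1 is a surfactant gene with signal in 1 line only. CG dinucleotides, the sites of DNA methylation, are in capitals.

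Cftr (GRCm38.p6, chr6:18170437-18170736, + strand): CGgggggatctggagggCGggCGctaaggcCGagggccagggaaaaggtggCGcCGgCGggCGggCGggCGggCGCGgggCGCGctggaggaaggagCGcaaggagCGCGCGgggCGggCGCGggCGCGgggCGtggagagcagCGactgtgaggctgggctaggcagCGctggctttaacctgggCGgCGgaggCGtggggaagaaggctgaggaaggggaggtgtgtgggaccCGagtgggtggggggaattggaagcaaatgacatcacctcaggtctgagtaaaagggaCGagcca
Aqp5 (GRCm38.p6, chr15:99590778-99591077, + strand): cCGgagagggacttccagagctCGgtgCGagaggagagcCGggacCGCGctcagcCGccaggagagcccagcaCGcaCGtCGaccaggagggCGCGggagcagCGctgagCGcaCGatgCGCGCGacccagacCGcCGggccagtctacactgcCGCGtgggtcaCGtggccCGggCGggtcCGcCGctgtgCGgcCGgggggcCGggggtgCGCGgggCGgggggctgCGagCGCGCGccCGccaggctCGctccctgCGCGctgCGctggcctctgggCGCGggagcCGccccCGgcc
Sftpa1 (GRCm38.p6, chr14:41131538-41131837, + strand): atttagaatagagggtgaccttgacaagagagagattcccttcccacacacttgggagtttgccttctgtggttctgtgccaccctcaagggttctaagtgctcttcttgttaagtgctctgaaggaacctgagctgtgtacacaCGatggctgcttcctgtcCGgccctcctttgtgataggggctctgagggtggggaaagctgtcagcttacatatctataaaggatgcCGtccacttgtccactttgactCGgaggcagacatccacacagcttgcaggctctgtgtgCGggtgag

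The Cftr window held 31 CG dinucleotides and the Aqp5 window 46, against a median of 7.0 over 32851 promoter windows of the same length. As many or more were found in 10.6% of all windows for Cftr and in 1.65% for Aqp5. The Abca3 window was also rich in them, with 29 (12.9% of windows held as many), whereas Nkx2-1 had 12, Sftpb 8 and Sftpa1 5. The G and C share was 71.3% for Cftr, 79.7% for Aqp5 and 69.7% for Abca3, against a median of 52.7%. It was 53.7% for Nkx2-1, 58.3% for Sftpb and 52.0% for Sftpa1. A TATAAA box and the NKX2-type core CAAGTG, searched on both strands, were each found in the Sftpa1 window and in none of the other 5. Over all windows, 13.6% held TATAAA and 13.6% held CAAGTG. The FOXA-type core TGTTTAC, held by 3.65% of windows, was in none of the 6. These are letter matches in short windows, and nothing was measured at them.

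Signals are given as log2 of the processed signal, scaled so that the 75th percentile was the same on every array. The scanner software marks a spot as well above background or not, and a probe was called so where at least 50% of its usable spots were. The lowest signal of a probe called well above background was 3.24 on KO 1, 3.32 on KO 2, 3.58 on WT 1 and 3.35 on WT 2. Folds given below as at least a value are counted from this signal, or from the probe where brighter. Some probes brighter than this signal were not called well above background, so these folds are not strict limits. Between 68.4% and 70.3% of gene probes passed on each array, and no gene spot was saturated. The labelled cell type fitted its markers: all 8 tested pluripotency markers, among them Pou5f1, Sox2 and Esrrb, were well above background in all 4 lines. Dppa2 measured 7.05 and 7.12 in KO lines, against 12.09 and 12.03 in WT lines. Where the only Dppa2 probe lies relative to the deleted part was not used here. The Dppa4 signal was 13.95 and 14.07 in KO lines and 13.37 and 13.54 in WT lines.

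**Figure D1:**
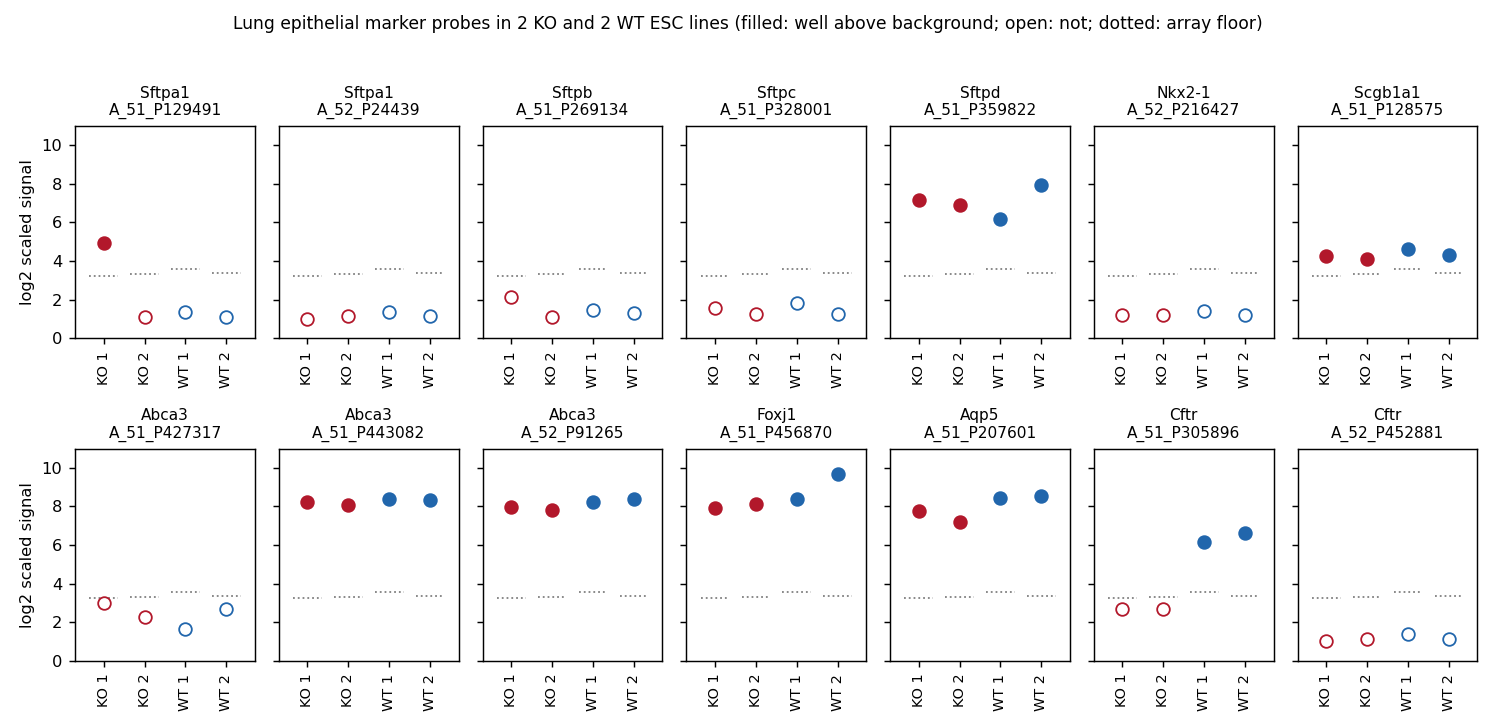
Log2 scaled signal of the 14 probes of the lung epithelial marker genes, 1 panel per probe, with the KO lines (red) left of the WT lines (blue). Filled circles were well above background, open circles were not, and dotted lines mark the lowest signal well above background on that array; 6 probes were filled in all 4 lines and 6 in none, and levels of different probes are not comparable.

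Among the 10 genes, 5 were well above background in all 4 lines (Sftpd, Abca3, Foxj1, Aqp5 and Scgb1a1) and 3 in no line (Nkx2-1, Sftpb and Sftpc). Cftr was above background in WT lines only, and Sftpa1 in 1 KO line only. KO lines differed from WT lines beyond the test's threshold in 1 of the 6 tested genes: Cftr fell. None of the 6 rose. Over all genes and transcripts, 1.67% fell and 0.176% rose at the same threshold (limma, Benjamini-Hochberg adjusted p under 0.05 over 21639). The 6 differences were all negative, from -3.72 to -0.01 on the log2 scale, with a median of -0.67 against 0.10 over all genes tested; Sftpd turned positive under median centring, quantile scaling and in the deposited table (0.13 to 0.16). Since Cftr entered the test only through its WT level, this median is a description of these genes and supports nothing. In bulk samples such as these, fewer cells expressing a gene and less RNA per cell cannot be told apart.

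Cftr, the chloride channel of airway and gut epithelium, was the member with a called difference. Its probe A_51_P305896 was spotted 10 times on each array. The mean signal was 2.69 in KO 1 and 2.67 in KO 2, against 6.16 in WT 1 and 6.63 in WT 2. Both WT lines were therefore clearly above background, and neither KO line was. In KO 1 the 10 spots ran from 1.50 to 3.28 with a median of 2.86, and 1 of them was well above background. In KO 2 the 9 usable spots ran from 1.42 to 3.42 with a median of 2.72, and again 1 was well above background. In WT 1 the 10 spots ran from 5.23 to 6.39 with a median of 6.24. In WT 2 the 8 usable spots ran from 6.52 to 6.73 with a median of 6.64. All 18 usable WT spots were well above background, and the lowest of them lay above the highest usable KO spot. Spots of an array share its RNA, so they show how well each line was measured and are not replicates of a genotype.

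The Cftr mean was 2.68 ± 0.01 in KO lines and 6.40 ± 0.33 in WT lines (SD, n = 2 each), a log2 difference of -3.72 (SE 0.21, limma adjusted p = 0.0224). As the KO lines lay at background, the fall is at least 8.67-fold, with each KO array set at its lowest signal well above background, or at the probe where that was brighter, against the mean of the WT lines. The KO spread is one of background signal and does not measure how Cftr varies between KO lines. KO 1 minus WT 1 (mother 1046) was -3.47, and KO 2 minus WT 2 (mother 875) was -3.96. With the mother as a replicate block the value stayed the same but did not pass (limma adjusted p = 0.0830). It also did not pass without WT 1 (0.140), WT 2 (0.155) or KO 2 (0.0811). Normexp background correction with an offset of 50, which lifts dim signals, gave -1.14 (limma adjusted p = 0.0799).

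The second Cftr probe, A_52_P452881, was not well above background in any line, with 1.04 and 1.14 in KO lines and 1.39 and 1.16 in WT lines. The 2 probes thus disagree in WT lines, and the Cftr result rests on the first. In KO 2, 1 spot of the first probe read 7.54 and carried the scanner's outlier flag. With flagged spots kept, a setting chosen after seeing the data, the log2 difference was -3.45 (limma adjusted p = 0.0345).

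**Figure D2:**
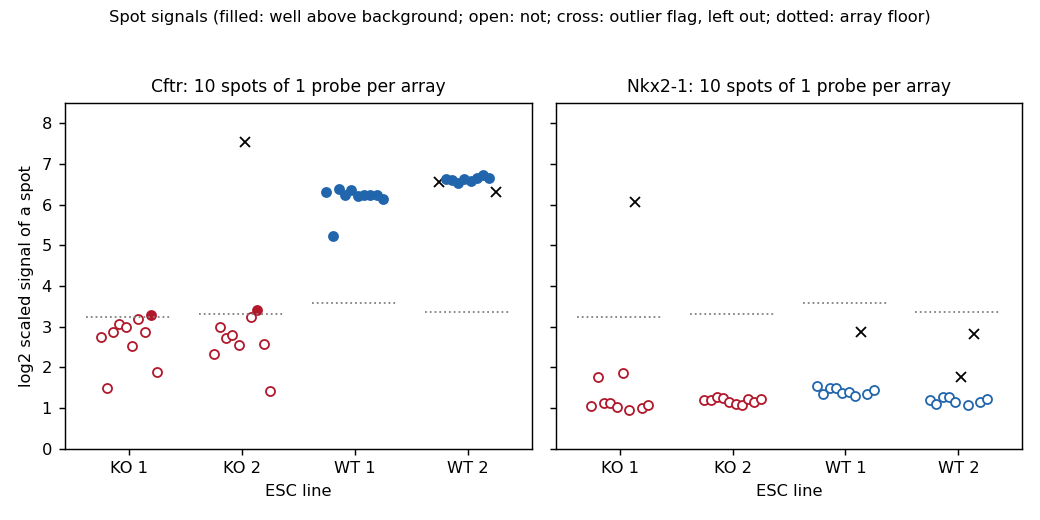
Log2 scaled signal of each of the 10 spots per array of the Cftr probe A_51_P305896 (left) and of the Nkx2-1 probe A_52_P216427 (right), with KO lines (red) left of WT lines (blue). Filled spots were well above background, open ones not, and crosses carried an outlier flag and were left out; the usable Cftr spots of the WT lines all lie above those of the KO lines, and no usable Nkx2-1 spot of any line is filled.

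Nkx2-1, the factor that specifies lung and thyroid, was measured as often as Cftr and gave no signal. Its 10-spot probe had means of 1.22 and 1.19 in KO lines and 1.42 and 1.18 in WT lines, all under the lowest signal well above background. None of the 36 usable spots was well above background. One flagged spot on KO 1 read 6.06, and the highest flagged spots of WT 1 and WT 2 read 2.88 and 2.82. These were left out.

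The surfactant proteins differed from each other in detection. Sftpb measured 2.15 and 1.11 in KO lines and 1.47 and 1.29 in WT lines. Sftpc measured 1.58 and 1.27 in KO lines and 1.84 and 1.27 in WT lines. Neither hydrophobic surfactant protein was well above background in any line, so no fold is given for them. Sftpa1 had 2 probes. The probe A_51_P129491 read 4.95 in KO 1 and 1.10 in KO 2, against 1.34 and 1.11 in WT lines, and only KO 1 was well above background. The probe A_52_P24439 read 0.99 and 1.13 in KO lines and 1.36 and 1.14 in WT lines, with no line above background. The KO 1 signal of Sftpa1 thus came from a single spot of 1 of its 2 probes.

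Sftpd, the collectin that binds microbes, was well above background in all 4 lines. It measured 7.17 and 6.91 in KO lines, against 6.16 and 7.94 in WT lines. The KO lines lay between the WT lines, so the genotypes overlapped. The log2 difference was -0.01 (SE 0.67, limma adjusted p = 0.992), with a 95% interval from -1.94 to 1.91, which leaves room for a change of several fold either way. Within mother 1046 KO 1 was higher by 1.01, and within mother 875 the difference was -1.04. Most of this came from the WT lines, where WT 2 minus WT 1 was 1.78, whereas KO 2 minus KO 1 was -0.26. The value was 0.88 without WT 2 and -0.90 without WT 1.

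Abca3, the lipid transporter of lamellar bodies, had 3 probes. The brightest, A_51_P443082, read 8.25 and 8.10 in KO lines and 8.41 and 8.36 in WT lines, a log2 difference of -0.21 (SE 0.13, limma adjusted p = 0.388; 95% interval -0.59 to 0.17). The probe A_52_P91265 read 7.98 and 7.83 in KO lines and 8.21 and 8.38 in WT lines, a difference of -0.39. The KO lines lay below the WT lines on both probes without passing the test. The third probe, A_51_P427317, was not well above background in any line, between 1.65 and 2.98.

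Aqp5, the water channel, measured 7.77 and 7.18 in KO lines and 8.46 and 8.52 in WT lines. The genotypes did not overlap, and the KO lines were further apart than the WT lines. The log2 difference was -1.02 (SE 0.25), with a 95% interval from -1.73 to -0.30. It did not pass after adjustment over all genes (limma unadjusted p = 0.0178, adjusted p = 0.145). KO 1 minus WT 1 was -0.69, and KO 2 minus WT 2 was -1.34.

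Foxj1, the cilium regulator, measured 7.92 and 8.10 in KO lines and 8.39 and 9.68 in WT lines. WT 2 stood apart from WT 1 by 1.28, while KO 2 and KO 1 differed by 0.19. The log2 difference was -1.02 (SE 0.49, limma adjusted p = 0.295; 95% interval -2.43 to 0.38). It was -0.38 without WT 2 and -1.67 without WT 1.

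Scgb1a1, the club cell secretory protein, was close to the detection limit. It measured 4.23 and 4.09 in KO lines and 4.63 and 4.33 in WT lines, a log2 difference of -0.31 (SE 0.17, limma adjusted p = 0.334; 95% interval -0.80 to 0.17). The KO lines lay below both WT lines, but KO 2 minus WT 2 (-0.23) was smaller than the gap between the WT lines (WT 2 minus WT 1, -0.30).

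Counting lines alone, both KO lines lay below both WT lines in 5 of the 6 tested members and above them in 0. Over all genes tested, 24.5% were lower and 37.7% higher in this sense. The exception among the members was Sftpd. Since Cftr entered the test only through its WT level, its place below the WT lines is not independent of the filter. The count is therefore a description of these genes and supports nothing.

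**Figure D3:**
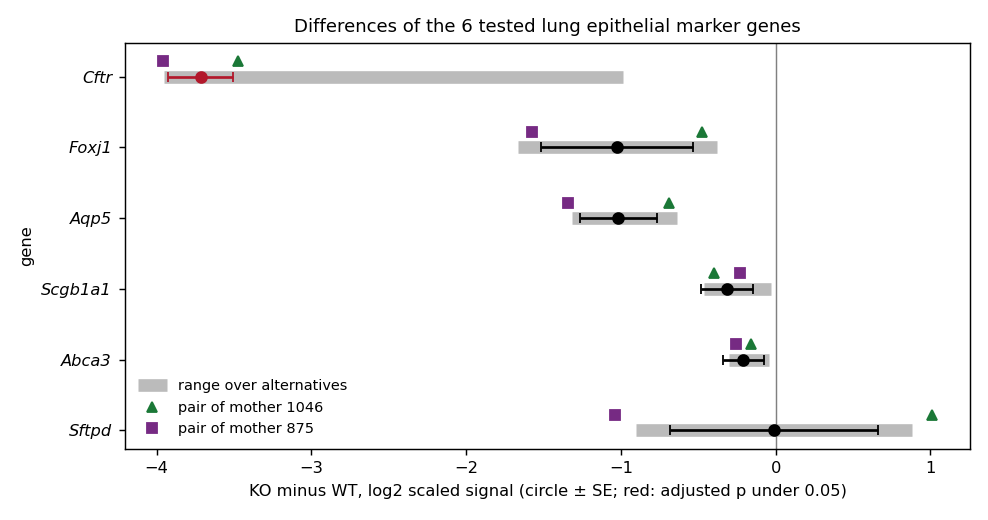
KO minus WT differences on the log2 scale for the 6 tested lung epithelial marker genes. Circles with bars are the difference and its SE (red where the limma adjusted p is under 0.05), grey bands the range over the alternative settings, and triangles and squares the pairs of mothers 1046 and 875; Cftr is at -3.72, and the pairs of Sftpd fall on opposite sides of 0.

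The genes around the members were read from lists of lung cell types, regulators and gene families. These 17 lists hold 253 genes other than the members, of which 179 were tested. Of these, 10 fell (5.59%, against 1.67% of all genes), 2 rose (1.12%, against 0.176%), and their median was 0.03 on the log2 scale. With the mother as a replicate block, none of these 12 passed. Ctsh, Clic5, Ltf, Grp, Tac1, Wnt2 and Nkx2-5 entered the test only through their WT level, and Resp18 only through its KO level. Except for Clic5, neither line of the other genotype was above background, so the spread there is one of background signal. As for Cftr, that spread does not measure how these genes vary between its lines. The lists were also chosen with earlier results of these data known, so these shares are a description and support nothing. Without WT 1, WT 2 or KO 2, 0 fell and 0 rose, as for all genes.

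Of 15 further alveolar type 2 and surfactant genes, 1 fell, 0 rose and 14 did not pass, with a median of 0.20. The gene that fell was Ctsh, a cathepsin that helps to trim the surfactant protein B precursor. It measured 2.62 and 2.54 in KO lines, not above background, against 9.44 and 9.51 in WT lines, a fall of at least 73.1-fold (limma adjusted p = 0.00682). Sftpb itself, the precursor's gene, had no signal in any line. Napsa, the other protease known for this step, was higher in the KO line of both mothers without passing, at 8.05 and 9.53 in KO lines and 6.47 and 7.86 in WT lines (limma adjusted p = 0.287). It was picked after its values were seen.

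Of 16 further alveolar type 1 genes, 2 fell, 0 rose and 14 did not pass, with a median of -0.86. Clic5, a chloride intracellular channel family gene tied to the cytoskeleton, measured 3.48 and 3.30 in KO lines, 1 of them above background, against 5.93 and 6.05 in WT lines. Its log2 difference was -2.60 (SE 0.14, limma adjusted p = 0.0222). Cav2, a caveolin, measured 6.44 and 6.76 in KO lines and 8.67 and 8.65 in WT lines, a 4.17-fold fall (limma adjusted p = 0.0361). Both KO lines lay below both WT lines in 13 of the 16 genes (24.5% of all genes) and above them in 1 (37.7% of all genes). Neither Clic5 nor Cav2 passed with the mother as a replicate block (limma adjusted p = 0.0837 and 0.0946).

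Of 9 further airway secretory genes, 1 fell, 0 rose and 8 did not pass, with a median of 0.00. Ltf, the iron-binding lactoferrin, measured 2.65 and 2.51 in KO lines, not above background, against 4.57 and 4.65 in WT lines, a fall of at least 2.51-fold (limma adjusted p = 0.0257). Of 21 further genes of multiciliated cells, 0 fell and 0 rose. Their median was 0.43, and 13 differences were positive. Both KO lines lay above both WT lines in 11 of the 21 (37.7% of all genes) and below them in 7 (24.5% of all genes). The smallest p in that list belonged to Tppp3, a tubulin-binding protein gene, with 9.84 and 9.72 in KO lines and 8.70 and 8.85 in WT lines (limma adjusted p = 0.0737). The axonemal gene Hydin had 6.03 and 6.50 in KO lines and 4.92 and 4.35 in WT lines (limma adjusted p = 0.101). The other 2 of the 4 smallest p in the list had negative differences. Dnah11, an axonemal dynein gene, had 3.14 and 3.29 in KO lines, not above background, and 4.10 and 3.90 in WT lines (limma adjusted p = 0.107). Spag6l, a gene of the cilium's central apparatus, had 3.67 and 1.69 in KO lines, 1 of them above background, and 6.31 and 6.16 in WT lines (log2 difference -3.56, limma adjusted p = 0.118).

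The airway basal list had 9 tested genes, of which 0 fell and 0 rose, with a median of 0.08. Krt14, a keratin of basal cells, measured 6.93 and 7.26 in KO lines and 8.53 and 8.69 in WT lines (limma adjusted p = 0.0598). The next smallest p in the list belonged to Aqp3, given with the aquaporins, and Ngfr, a neurotrophin receptor gene, both with positive differences. Ngfr had 13.21 and 12.67 in KO lines and 11.24 and 11.86 in WT lines (limma adjusted p = 0.137). Egfr, a growth factor receptor gene, came next by p, with a negative log2 difference of -2.18. Its signal was 10.14 and 8.72 in KO lines and 11.81 and 11.40 in WT lines (limma adjusted p = 0.153). Both KO lines lay above both WT lines in 3 of the 9 genes (37.7% of all genes) and below them in 2 (24.5% of all genes). Of 12 neuroendocrine genes, 2 fell, 1 rose and 9 did not pass, with a median of 0.07. Grp, gastrin-releasing peptide, was not above background in KO lines (2.79 and 2.86) and measured 6.68 and 6.50 in WT lines, a fall of at least 9.93-fold. Tac1, the substance P precursor, likewise was not above background in KO lines (1.04 and 1.19), against 5.05 and 5.44 in WT lines, a fall of at least 3.91-fold. Resp18, a protein of endocrine granules, rose at least 1.90-fold, with 4.13 and 4.65 in KO lines against 1.97 and 1.93 in WT lines, where it was not above background. The limma adjusted p was 0.0157 for Grp, 0.0173 for Tac1 and 0.0419 for Resp18.

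Of 24 further transcription factors of lung development, 0 fell and 0 rose, with a median of 0.37. The smallest p belonged to Etv4, a target of FGF signalling, with 12.15 and 12.49 in KO lines and 10.77 and 10.97 in WT lines (limma adjusted p = 0.0681). Irx2, next by p, had 10.75 and 10.25 in KO lines and 8.93 and 8.64 in WT lines (limma adjusted p = 0.0763). Sox2, shared between airway and ESC programs, had 14.14 and 14.32 in KO lines and 13.40 and 13.36 in WT lines (limma adjusted p = 0.0885). Klf5 followed, with 14.01 and 14.32 in KO lines and 13.36 and 13.51 in WT lines (limma adjusted p = 0.141). Of the 24 differences, 16 were positive. Both KO lines lay above both WT lines in 9 of the 24 (37.7% of all genes) and below them in 5 (24.5% of all genes). Foxa2, a foregut partner of Nkx2-1, had 8.37 and 8.06 in KO lines and 8.41 and 9.95 in WT lines (limma adjusted p = 0.378). It was picked after its values were seen.

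Of 26 lung signalling genes, 2 fell, 0 rose and 24 did not pass, with a median of 0.00. Wnt2, a mesenchymal signal of lung development, measured 2.83 and 3.18 in KO lines, not above background, against 5.83 and 6.12 in WT lines, a fall of at least 6.47-fold (limma adjusted p = 0.0271). Nog, a secreted BMP antagonist needed for foregut separation, measured 4.93 and 5.01 in KO lines and 6.42 and 6.29 in WT lines, a 2.62-fold fall (limma adjusted p = 0.0429).

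Airway ion transport was the list closest to Cftr. Of 13 further genes, 1 fell, 0 rose and 12 did not pass, with a median of -0.45. Ano1, the calcium-activated chloride channel, measured 3.61 and 3.77 in KO lines, above background in both, and 5.55 and 5.53 in WT lines, a 3.60-fold fall (limma adjusted p = 0.0295). Scnn1a, a subunit of the epithelial sodium channel, had 6.22 and 7.16 in KO lines and 7.43 and 7.53 in WT lines (limma adjusted p = 0.289). Slc9a3r1, whose protein anchors the Cftr channel, had 12.23 and 12.74 in KO lines and 12.74 and 12.85 in WT lines (limma adjusted p = 0.444). Both were picked after their values were seen. Of the 13 differences, 5 were positive. Both KO lines lay above both WT lines in 4 of the 13 (37.7% of all genes) and below them in 6 (24.5% of all genes).

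Gene relatives of the members mostly did not pass. Among 7 tested ABCC transporters, the family of Cftr, 0 fell and 0 rose. Abcc4 had 13.75 and 13.82 in KO lines and 12.16 and 12.62 in WT lines (limma adjusted p = 0.0824). Abcc3, next by p, went the other way, with 3.97 and 5.19 in KO lines and 6.17 and 6.08 in WT lines (limma adjusted p = 0.183). Of the 7 differences, 5 were positive. Among 9 ABCA transporters besides Abca3, 0 fell and 1 rose, Abca1, the cholesterol exporter. It measured 10.53 and 10.77 in KO lines and 8.86 and 8.92 in WT lines (limma adjusted p = 0.0382). Among 5 aquaporins besides Aqp5, 0 fell and 0 rose, with 2 positive differences and a median of -0.21. Aqp3, a water and glycerol channel of basal cells, had 12.44 and 12.90 in KO lines and 11.46 and 11.29 in WT lines (limma adjusted p = 0.0927). Of the 5 tested relatives of Nkx2-1, 1 fell, the cardiac gene Nkx2-5, with 3.46 and 3.16 in KO lines, not above background, and 8.17 and 7.55 in WT lines. It fell at least 22.2-fold (limma adjusted p = 0.0249) and was a gene of interest to the study in these lines, so its direction is not independent evidence.

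None of the tested genes passed among 3 collectins, 2 Foxj relatives, 2 secretoglobins and 6 saposin and BRICHOS proteins. Mbl2, a collectin of liver and plasma, had 6.30 and 4.77 in KO lines, against 3.28 and 2.35 in WT lines, where it was not above background (limma adjusted p = 0.145). Foxj2 had 8.75 and 8.67 in KO lines and 9.08 and 9.17 in WT lines (limma adjusted p = 0.185). Scgb3a1, an airway secretoglobin, had 5.70 and 6.48 in KO lines and 4.85 and 5.99 in WT lines (limma adjusted p = 0.463).

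**Figure D4:**
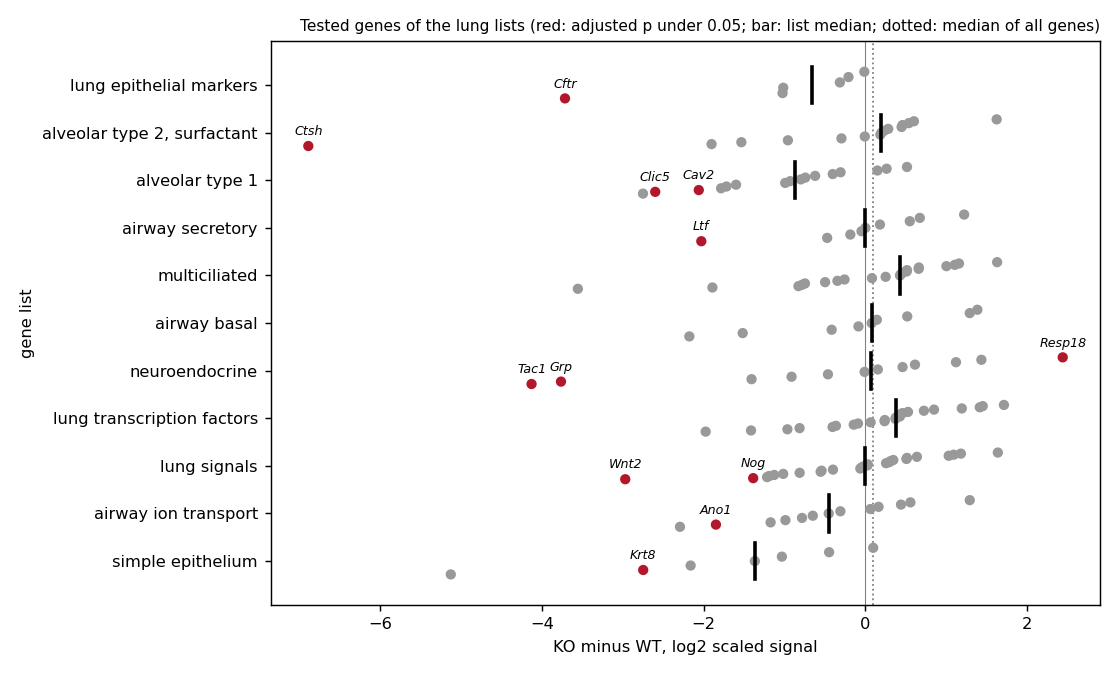
KO minus WT differences on the log2 scale of every tested gene in the lists of lung cell types, regulators and signals and in the simple epithelium list, with members shown in the first row only. Red points passed the limma adjusted threshold of 0.05 and are named, black bars are list medians, and the dotted line is the median of all genes tested; Cftr lies at -3.72 in the first row and Ctsh at -6.89 in the second.

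Of 7 markers of simple epithelium, 1 fell, 0 rose and 6 did not pass, with a median of -1.37. All 7 were well above background in all 4 lines. Both KO lines lay below both WT lines in 6 of them (24.5% of all genes). Their summed linear signal was 118075 and 104244 in KO lines and 356884 and 482421 in WT lines. Such a sum weights bright probes most, and Krt8 had 14.77 and 14.22 in KO lines and 17.03 and 17.46 in WT lines. The keratin gene Krt8 fell 6.72-fold (limma adjusted p = 0.0497, and 0.119 with the mother as a replicate block). Epcam, a surface protein of epithelia and ESCs, had 13.53 and 13.61 in KO lines and 13.60 and 13.34 in WT lines (limma adjusted p = 0.712). It was picked after its values were seen, and its difference was the only positive one of the 7.

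Other cell types were measured in the same way. The 10 fibroblast markers summed to 41008 and 32378 in KO lines and 65482 and 21976 in WT lines, so the sums of the genotypes overlapped. Taken gene by gene, 2 fell (Mmp2 and Fbn1), 0 rose and 8 did not pass, with a median of -1.22. Both KO lines lay below both WT lines in 5 of the 10 (24.5% of all genes) and above them in 0 (37.7% of all genes). The 10 primitive endoderm markers summed to 5003 and 3732 in KO lines and 7445 and 8556 in WT lines, so the sums were lower in KO lines. Taken gene by gene, 1 fell (Dab2), 1 rose (Lama1) and 8 did not pass, with a median of 0.86. Both KO lines lay above both WT lines in 5 of the 10 (37.7% of all genes) and below them in 3 (24.5% of all genes). A sum weights the brightest probes most, and here it and the median differ in direction. The 8 pluripotency markers summed to 602354 and 707913 in KO lines and 474133 and 462952 in WT lines, with 0 calls. All 8 differences were positive, with a median of 0.94. Both KO lines lay above both WT lines in 7 of the 8 (37.7% of all genes) and below them in 0 (24.5% of all genes). Of these lists, 10 and 9 fibroblast markers were above background in KO 1 and KO 2 and 10 in each WT line, and the other markers were so in every line. The part of these markers in the differences of Cftr and the other members was not tested.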

How the data were processed

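RNA of 4 mouse ESC lines, 2 KO and 2 WT by their titles, was hybridised to 1 array each. The authors extracted spot intensity values, per the file headers, with Agilent's Feature Extraction software 10.7.3.1, and its processed intensity was the starting point. The deposited series table holds log2 values whose columns correlated at 0.999902 to 0.999988 with log2 of the processed signal, shared their quantiles within 0.00332 and had a median of 6.55: quantile-normalized, not centred per probe, as read from the values. GeneSpring GX 11 is named for the study's analysis, per the labels. The scanner flags (other values of 0 or 1) are the software's, per the file headers.

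Log2 processed signals were scaled to each array's 75th percentile. Controls and outlier-flagged spots were removed, the remaining spots of a probe averaged, and 233 probes with no usable spot on an array dropped. Of 41174 gene probes, 26690 matched 1 symbol, 0 several and 14484 none, through RefSeq accessions of GRCm38.p6; the array annotation refers to mm9, so gene coordinates are not given, and promoter positions are those of the RefSeq table. Probes were kept where both arrays of 1 or both genotypes were well above background, and the brightest stood for its gene. The comparison of KO with WT used lmFit and eBayes of limma 3.58.1 (R 4.3.3) with Benjamini-Hochberg adjustment over 21639 genes and transcripts at 0.05; the procedure was tested on simulated data. Equal numbers share a mother per the labels; across genes, the mother-to-mother difference of KO lines and that of WT lines had a correlation of 0.19. All named members are reported. From each other list, called genes (at most 6 by p) or the 4 of smallest p could be named. Genes marked as picked after their values were seen were named outside this rule. Members and lists were chosen with earlier results of these data known. Normexp was run on the median spot signal, because the files hold no mean signal. The number of arrays limits the precision.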

Additional observations from a re-analysis of the deposited data

Results flagged for a closer look

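Sftpd differed in opposite directions in the pairs from the 2 mothers: on the log2 scale, KO 1 minus WT 1 (mother 1046) was 1.01, whereas KO 2 minus WT 2 (mother 875) was -1.04. The difference between the pairs was not tested, since each holds 1 line per genotype.

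The Sftpa1 probe A_51_P129491, which was too dim for the comparison, was well above background on 1 array, with 4.95 in KO 1, against 1.10 in KO 2 and 1.34 and 1.11 in WT lines. The value comes from 1 spot. The other Sftpa1 probe read 0.99 in KO 1.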

How the results depend on the processing

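Each result was recomputed under 16 alternatives, 15 planned and 1 (flagged spots kept) chosen after seeing the data. Cftr was lower in all 15 in which it was tested and passed in 9; requiring signal on all 4 arrays removed it from the test. Its log2 difference missed the threshold under normexp, scaled by percentile (-1.14) or by quantile (-0.99), and with the mother as a replicate block (-3.72), and ranged from -3.95 to -3.48 with 1 line left out, passing only without KO 1 (limma adjusted p = 0.0478). The count of lung markers called lower was therefore 0 under both normexp settings, the replicate block and the filter on all 4 arrays, and 0 to 1 with 1 line left out. The other 5 tested members passed under none of the 16. Aqp5, Foxj1, Abca3 and Scgb1a1 stayed negative under all 16. Sftpd turned positive under median centring (0.16), quantile scaling (0.15) and the deposited table (0.13), and ranged from -0.90 to 0.88 with 1 line left out, turning positive without WT 2 (0.88) and KO 2 (0.12). Median centring moved the median of all genes to 0.26, against 0.10.

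Over all genes, 361 fell and 38 rose. Rises numbered 80 with an intensity trend and robust prior, 69 under percentile-scaled normexp and 10 with no filter on dim probes. With the replicate block limma called 0 lower and 0 higher (2736 and 2278 at an unadjusted p under 0.05), and with signal on all 4 arrays 0 and 0 (2184 and 2444). With 1 line left out the counts ran from 0 to 679 lower and 0 to 64 higher, the highest without KO 1 and 0 otherwise. In the surrounding lists (10 lower, 2 higher) they were 6 and 4 under percentile-scaled normexp, 5 and 1 under quantile-scaled normexp, 0 and 0 with the replicate block and with signal on all 4 arrays, and 0 rises with no filter. With 1 line left out they ran from 0 to 14 lower and 0 to 2 higher. The smaller numbers of arrays or genes are part of those settings; otherwise the cause was not tested. The block changed no call from not passed to passed. Signal over background limits Cftr in KO lines, Scgb1a1 and the 4 members not tested.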
